A study of Mus musculus with 2 samples.

Results

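The MS4A genes (membrane-spanning 4-domains, subfamily A) were followed by poly(A) RNA sequencing in regulatory T cells of the effector type (effector Treg cells) from 2 mouse genotypes, with 1 library per genotype. The 9 genes described here, Ms4a1, Ms4a4a, Ms4a4b, Ms4a4c, Ms4a4d, Ms4a6b, Ms4a6c, Ms4a6d and Ms4a7, were picked by symbol from 46511 gene rows, with their values in both libraries already known, so their levels and ratios are given as descriptions. The control library (the heterozygous library below) came from Nrn1+/- mice, although its title calls it wild type, and the other (the null library) from Nrn1-/- mice. Both genotypes were C57BL/6 and carried the Foxp3DTRgfp allele, which marks Foxp3-expressing cells with green fluorescent protein. The gates that sorted the cells of both included CD4+, CD25+, CD44-high and Foxp3gfp+. The number and the age of the mice behind each library are not in the labels. With 1 library each, genotype and library cannot be told apart, no difference has a replicate check, and no p-value is given. Nrn1, which encodes neuritin, stood at 66.5 FPKM in the heterozygous library and 4.62 FPKM in the null library.

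MS4A proteins cross the cell membrane in 4 segments and act mostly as partners of other surface receptors. The best known is CD20, the product of Ms4a1 and the target of antibodies that deplete B cells. Other members are the beta chain of the high-affinity IgE receptor on mast cells and several proteins of macrophages. In mouse T cells MS4A4B associates with GITR, a costimulatory receptor that regulatory T cells carry at high levels, and modulates T cell activation. Values are FPKM, that is, fragment counts divided by transcript length and library depth, so that levels can be set side by side between genes.

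The family lies in 1 cluster on mouse chromosome 19 (GRCm38), which spans 679 kb from 10962293 to 11640851. The promoters of 2 pairs of members are shown because these pairs hold most of the MS4A RNA of these cells, with Ms4a6c as the low partner of Ms4a6b. Each sequence is the 250 bases before the RefSeq transcription start (GRCm38.p6, plus strand), printed 5′ to 3′. Capitals mark the longest run that is identical in the pair. The windows are chr19:11443308-11443557 for Ms4a4b, chr19:11407411-11407660 for Ms4a4c, chr19:11518309-11518558 for Ms4a6b and chr19:11469118-11469367 for Ms4a6c.
Ms4a4b: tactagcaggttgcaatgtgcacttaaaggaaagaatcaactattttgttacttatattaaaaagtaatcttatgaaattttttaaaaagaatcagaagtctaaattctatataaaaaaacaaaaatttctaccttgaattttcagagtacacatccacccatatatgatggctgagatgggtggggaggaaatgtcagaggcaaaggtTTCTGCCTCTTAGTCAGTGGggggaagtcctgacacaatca
Ms4a4c: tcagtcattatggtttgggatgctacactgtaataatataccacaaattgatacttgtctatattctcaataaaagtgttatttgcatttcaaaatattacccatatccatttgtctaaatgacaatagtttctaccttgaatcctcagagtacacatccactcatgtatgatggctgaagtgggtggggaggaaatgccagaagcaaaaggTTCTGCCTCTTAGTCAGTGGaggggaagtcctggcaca
Ms4a6b: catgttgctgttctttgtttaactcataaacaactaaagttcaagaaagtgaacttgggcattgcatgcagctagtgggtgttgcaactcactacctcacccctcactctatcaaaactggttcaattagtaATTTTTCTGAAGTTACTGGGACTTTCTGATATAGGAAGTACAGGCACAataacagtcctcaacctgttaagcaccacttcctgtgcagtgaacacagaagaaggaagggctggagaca
Ms4a6c: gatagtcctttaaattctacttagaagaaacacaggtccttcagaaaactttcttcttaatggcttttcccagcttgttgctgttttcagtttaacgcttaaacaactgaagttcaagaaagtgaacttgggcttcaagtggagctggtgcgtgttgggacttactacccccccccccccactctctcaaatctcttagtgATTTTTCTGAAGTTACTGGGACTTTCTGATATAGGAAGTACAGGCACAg

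The promoters of Ms4a4b and Ms4a4c shared an identical run of 20 bases, and their best local alignment covered 132 bases at 88.6% identity. For Ms4a6b and Ms4a6c the identical run was 48 bases and the alignment covered 172 bases at 86.0% identity. The runs lie at different distances from the annotated starts in the second pair, at base -118 for Ms4a6b and -49 for Ms4a6c. RefSeq promoters were matched for 7 members, which form 21 pairs. In the other 19 pairs the longest identical run was 6 to 9 bases. Similarity of promoter sequence was thus high within the Ms4a4b pair and the Ms4a6b pair and low between them.

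The coding sequences held the same 2 pairs together and placed Ms4a4d and Ms4a6d beside them. Among Ms4a4b, Ms4a4c and Ms4a4d, and among Ms4a6b, Ms4a6c and Ms4a6d, the 6 pairs were identical at 79.0% to 91.7% of aligned bases. The 30 other pairs lay between 55.2% and 67.9%. Ms4a4b and Ms4a4c were the closest pair, with 622 of 678 aligned coding bases identical. Ms4a1 was at 55.9% to 61.8% identity with the other members, and Ms4a4a, despite its name, reached at most 67.9%, with Ms4a4d.

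**Figure D1:**
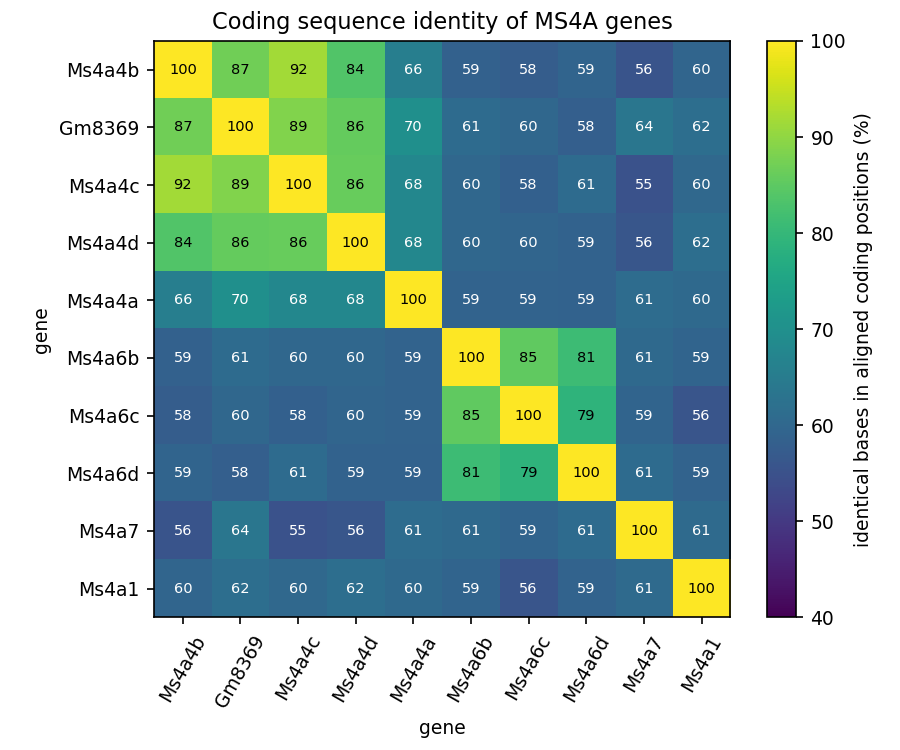
Each cell gives the percentage of identical bases among aligned coding positions for a pair of genes, named on both axes, with Gm8369 added as described below. Ms4a4b, Ms4a4c and Ms4a4d form one block of high identity and Ms4a6b, Ms4a6c and Ms4a6d another, while Ms4a1, Ms4a4a and Ms4a7 stand apart at 67.9% or less from every other member.

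Such likeness bears on the measurement, because short reads from near-identical stretches cannot be placed. In windows of 50 bases along the main transcript, Ms4a4b shared 134 of 4701 windows with Ms4a4c, and Ms4a6b shared 109 of 2631 with Ms4a6c. With windows of 75 bases these came to 65 of 4676 and 22 of 2606. Ms4a4c, the less abundant of its pair, shared 134 of its 1674 windows of 50 bases with Ms4a4b. Most of each transcript was therefore distinct by exact matches, and stretches that differ at few bases were not counted as shared. The sources used here do not give how the authors' counting treated the shared part. Ms4a6c was the exception among members: 993 of its 1792 windows of 50 bases also belong to BE692007, a transcript annotated on the opposite strand. The library kit named in the labels is not stated to keep strand, so reads of Ms4a6c and BE692007 may not be separable, and the value of Ms4a6c is uncertain.

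The members usually found in T cells were abundant and were lower in the null library. Ms4a4b (ENSMUSG00000056290.14, chromosome 19, 11443553 to 11467055) stood at 233 FPKM in the heterozygous library and 108 FPKM in the null library, 2.16-fold lower. Ms4a6b (ENSMUSG00000024677.12, 11516512 to 11531256), a T cell relative of the second block, stood at 219 and 124 FPKM, 1.77-fold lower. Ms4a4c (ENSMUSG00000024675.18, 11404770 to 11427246), known from T cells and also from myeloid cells, was at 26.8 and 11.2 FPKM, 2.38-fold lower. These 3 genes held 97.7% of the summed FPKM of the 9 members in the heterozygous library and 96.9% in the null library. Their sum was 479 FPKM against 243 FPKM. In bulk RNA, fewer cells of a type and less RNA per cell cannot be told apart.

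Ms4a4b and Ms4a6b were among the most abundant messages of these cells. Of 15757 protein-coding genes above 0 in the heterozygous library, Ms4a4b ranked 326th and Ms4a6b 350th. In the null library they ranked 985th and 835th of 15326. Their order was thus exchanged between the libraries, with Ms4a4b at 1.06 times Ms4a6b in the heterozygous library and at 0.875 times in the null library. Ms4a4c ranked 3941st and 6781st. The ratio of Ms4a4b to its near copy Ms4a4c moved less, from 8.72 to 9.63.

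**Figure D2:**
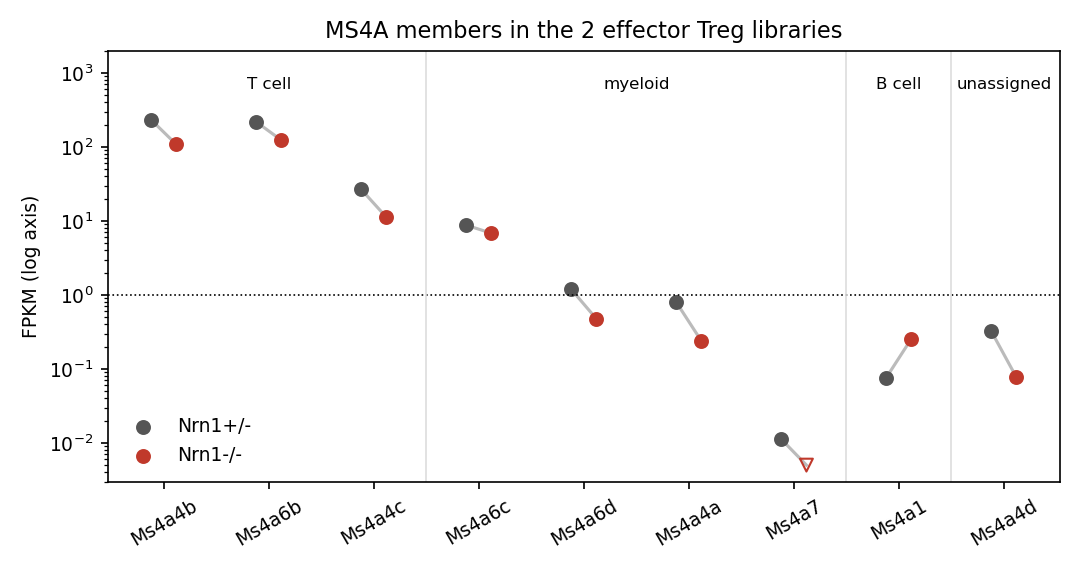
FPKM on a log axis for each of the 9 members in the Nrn1+/- library (grey) and the Nrn1-/- library (red), with the members grouped by the cells they are usually found in; the dotted line marks 1 FPKM and the open triangle marks Ms4a7 listed at 0. All points joined by a line fall from left to right except those of Ms4a1, which stood at 0.0761 FPKM and 0.256 FPKM.

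To set these differences against other genes, the log2 ratio of Nrn1-/- over Nrn1+/- was taken with a pseudocount of 1 FPKM, and only where the 2 libraries averaged 1 FPKM or more. Of the 9 members 4 passed this filter, and all 4 had negative ratios, as did 47.7% of all genes (52.3% had positive ones). The log2 ratio was -1.10 for Ms4a4b, -1.18 for Ms4a4c, -0.82 for Ms4a6b and -0.32 for Ms4a6c. The median over all 12344 genes was 0.019, and over 1004 protein-coding genes above 100 FPKM, the level of Ms4a4b and Ms4a6b, it was 0.20. Ms4a4b, Ms4a4c and Ms4a6b were at least 1.5-fold lower, as were 5.27% of all genes, and Ms4a4b and Ms4a4c at least 2-fold lower, as were 1.11% of all genes. No measured member was at least 1.5-fold higher, a fold that 7.5% of all genes passed. Because the members were chosen with these ratios in view, nothing is read from their count against the background. Among 10695 protein-coding genes, counted from the lowest ratio, Ms4a4c ranked 10th, Ms4a4b 16th, Ms4a6b 82nd and Ms4a6c 1551st.

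**Figure D3:**
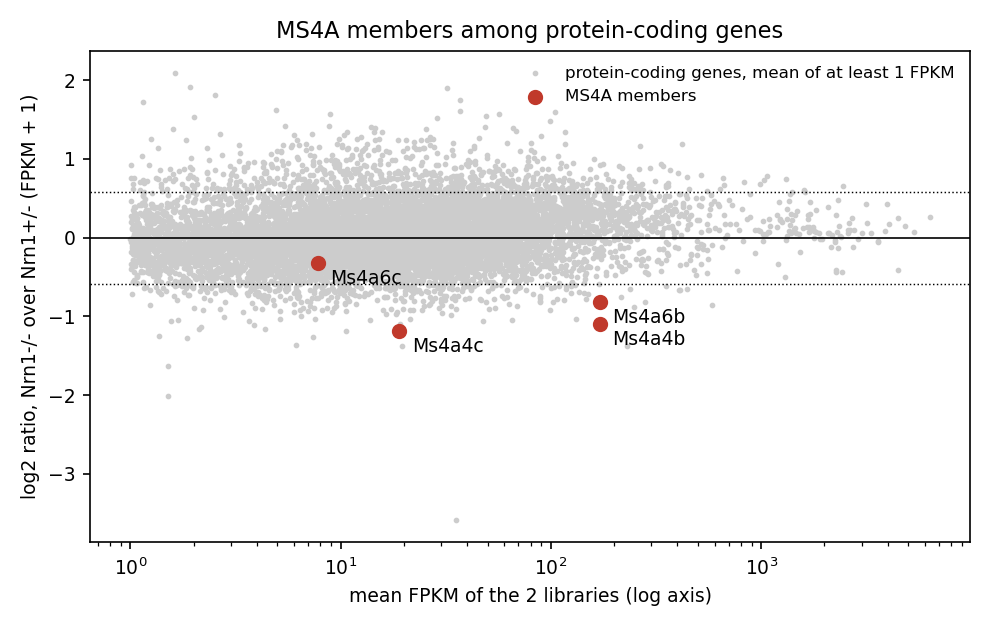
Log2 ratio of Nrn1-/- over Nrn1+/- (FPKM + 1) against mean FPKM on a log axis for protein-coding genes averaging 1 FPKM or more (grey), with the 4 measured MS4A members in red and dotted lines at 1.5-fold. Ms4a4b (-1.10), Ms4a4c (-1.18) and Ms4a6b (-0.82) lie below the lower line, and Ms4a6c (-0.32) lies inside it.

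The members known from myeloid cells were much less abundant. Ms4a6c, a gene of monocytes, was the highest of them at 8.78 FPKM in the heterozygous library and 6.83 FPKM in the null library. Ms4a6d, whose product is a macrophage surface protein, stood at 1.19 and 0.475 FPKM. Ms4a4a, whose product associates with the fungal receptor dectin-1 on macrophages, stood at 0.800 and 0.238 FPKM. Ms4a7, another macrophage gene, was at 0.0112 FPKM in the heterozygous library, which is at most 2 fragments, and was listed at 0 in the null library. Together these 4 genes summed to 10.8 and 7.54 FPKM, and Ms4a6c made up most of both sums.

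Ms4a4d, placed in neither group because the cells that use it are less clear, was at 0.323 FPKM in the heterozygous library and 0.0766 FPKM in the null library. Low values such as these rest on few fragments, and the number can be recovered from the spacing of the FPKM values. In genes with 1 annotated transcript, 1 fragment on 1 kb was worth 0.0192 FPKM in the heterozygous library and 0.0256 FPKM in the null library. Ms4a4d then rested on 22 fragments against 4, with 95% exact Poisson intervals of 0.203 to 0.491 FPKM and 0.0211 to 0.198 FPKM. Ms4a4a rested on 26 fragments against 6, with intervals of 0.521 to 1.17 FPKM and 0.0873 to 0.518 FPKM. These intervals cover counting error only and not the spread between animals or libraries. They were computed only for members with 1 annotated transcript. How many genes at such levels have separate intervals was not counted, so nothing is read from their separation. No ratio is given for members under a mean of 1 FPKM.

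The B cell member went the other way. Ms4a1, the gene of CD20, stood at 0.0761 FPKM in the heterozygous library and 0.256 FPKM in the null library, the 1 member of 9 with a higher value there. Depending on which of its 3 transcripts were sequenced, this is 9 to 11 fragments against 24 to 29. Ms4a4b exceeded it 3066-fold and 422-fold. Most B cell markers were similarly low. Of 16 B cell markers 12 were under a mean of 1 FPKM, and 10 of these 12 were higher in the null library, among them Pax5 (0.0434 and 0.280 FPKM) and Cd22 (0.464 and 1.18 FPKM). The 2 lower were Bank1 (0.736 and 0.508 FPKM) and Vpreb3 (0.409 and 0.298 FPKM). No share of all genes this low was taken beside that count. These 12 summed to 3.45 and 5.96 FPKM. The 4 markers above 1 FPKM, Ighm (229 and 180 FPKM), Cd72 (14.0 and 13.1 FPKM), Cd79b (4.85 and 5.14 FPKM) and Ighd (3.32 and 2.48 FPKM), brought the list to 255 and 206 FPKM. None of the 16 was at 0 in both libraries, and their part in the Ms4a1 difference was not tested. Of the plasma cell markers, Sdc1 stood at 0.972 and 2.62 FPKM and Xbp1, which other cells also use, at 106 and 102 FPKM.

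Most defining markers of myeloid cells were near 0. Of 16 macrophage and monocyte markers, C1qa, C1qb, C1qc, Marco and Vsig4 were at 0 in both libraries, and Csf1r was at 0.0260 FPKM and 0. Lyz2 (0.599 and 0.448 FPKM) and Cx3cr1 (0.441 and 0.458 FPKM) were higher, at levels like those of Ms4a4a and Ms4a6d. The list summed to 17.4 and 14.0 FPKM, nearly all of it from the measured genes Cd68 (7.09 and 5.56 FPKM) and Ccr2 (8.89 and 7.29 FPKM), both of which T cells can also express. Ms4a6c, which is not on that list, stood between Cd68 and Ccr2, above every marker of the list except Ccr2. Its value is uncertain, as described above. All 10 neutrophil markers were under 1 FPKM and summed to 0.286 and 0.398 FPKM. Among dendritic cell markers only Zbtb46 (2.58 and 1.89 FPKM) and Bst2 (163 and 204 FPKM), which interferon induces in many cells, were measured, and Clec9a, Siglech and Cd209a were at 0 in both libraries. Of the mast cell and basophil markers Kit alone was measured, at 4.16 and 2.39 FPKM, and Mcpt8 and Prss34 were at 0 in both. The part of myeloid cells in the differences of Ms4a4a, Ms4a6c, Ms4a6d and Ms4a7 was not tested.

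The sorted cells carried T cell markers throughout, and these were closer to even between the libraries than Ms4a4b, Ms4a4c and Ms4a6b. All 16 T cell markers were measured. Of these 10 were lower and 6 higher in the null library, beside 47.7% and 52.3% of all genes. None passed 1.5-fold, a fold that 5.27% of all genes passed downward and 7.5% upward. The median log2 ratio of the 16 markers was -0.15. The largest differences were those of Cd2 (635 and 465 FPKM, log2 ratio -0.45), Cd3g (250 and 186 FPKM, -0.43) and Cd247 (218 and 170 FPKM, -0.35). Markers of NK and CD8 T cells reached at most 4.65 FPKM, with Cd8b1. Of 6 measured, 4 were higher and 2 lower, beside 52.3% and 47.7% of all genes. The largest differences among these 6 were those of Prf1 (2.06 and 3.28 FPKM), Ncr1 (1.45 and 0.810 FPKM) and Cd8b1 (4.65 and 3.45 FPKM).

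Other genes with an Ms4a name were at or near 0. Gm8369, a gene model without such a name whose coding sequence resembles that of Ms4a4c, was at 88.6 and 42.4 FPKM and is described below. Of the 14 further MS4A and related genes found in the files, 9 were listed at 0 in both libraries: Ms4a5, Ms4a10, Ms4a12, Ms4a13, Ms4a14, Ms4a15, Ms4a18, and the genes now called Ms4a19 and Ms4a20. Ms4a2, the beta chain of the IgE receptor, was at 0.0613 FPKM and 0. Ms4a3, a gene of granulocyte and monocyte precursors, was at 0.102 and 0.0329 FPKM, and Ms4a8a at 0.0840 FPKM and 0. Tmem176a (17.7 and 18.3 FPKM) and Tmem176b (24.3 and 20.6 FPKM), distant relatives that also cross the membrane in 4 segments and lie on another chromosome, differed by 1.03-fold and 1.18-fold.

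Receptors that MS4A proteins accompany differed less than the abundant members. Tnfrsf18, which encodes GITR, was at 608 FPKM in the heterozygous library and 503 FPKM in the null library, 1.21-fold lower. Fcer1g, the signalling chain of Fc receptors, was at 17.9 and 12.002 FPKM, 1.49-fold lower, while Fcer1a was at 0.0244 FPKM and 0. Cd81 was at 86.3 and 83.2 FPKM, Tyrobp at 3.29 and 2.72 FPKM and Cd40 at 2.13 and 3.22 FPKM. Clec7a, the gene of dectin-1, was at 0.0574 and 0.202 FPKM and Trem2 at 0.0220 FPKM and 0. Cd79a, a chain of the B cell receptor, was at 0.553 and 1.16 FPKM. Of the 11 partner genes 6 were measured, 4 lower and 2 higher, beside 47.7% and 52.3% of all genes. None of the 6 passed 1.5-fold on the log2 scale with its pseudocount, as 5.27% of all genes did downward and 7.5% upward.

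The abundant members lie side by side on the chromosome, among other rows with lower values in the null library. This account was drawn up after the values of the members were known. In the 229 kb stretch between Ms4a4a and Ms4a6d, which holds 7 of the 9 members, 8 rows averaged at least 1 FPKM. All 8 were lower in the null library and 6 at least 1.5-fold lower, beside 47.7% and 5.27% of all genes. Besides the 4 measured members the rows were Gm8369, BE692007, Gm37387 and Gm19261. Gm8369, a protein-coding gene model between Ms4a6c and Ms4a6b, was at 88.6 FPKM in the heterozygous library and 42.4 FPKM in the null library, 2.09-fold lower. Its short coding sequence of 498 bases aligned to that of Ms4a4c over 369 bases at 88.6% identity, yet none of its windows of 50 bases was shared with a member. BE692007, the transcript opposite Ms4a6c, was at 13.5 and 7.62 FPKM, 1.78-fold lower, and its reads may not be separable from those of Ms4a6c. Gm37387 (4.77 and 2.56 FPKM) and Gm19261 (2.07 and 1.57 FPKM) overlap Ms4a4b and Ms4a6b, so they may count reads of those genes.

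Outside that stretch, within 500 kb of the family on either side, 22 rows had a mean of at least 1 FPKM. Of these 18 were higher in the null library, as were 52.3% of all genes, and the median log2 ratio of the 22 was 0.19. The median inside, -0.79, comes from the measured members, chosen with their ratios known, and from neighbours most of which may share reads with them. It is therefore no separate contrast with the outside. The T cell genes Cd5 (245 and 283 FPKM) and Cd6 (217 and 243 FPKM), which lie before the cluster, were among the higher rows. Prpf19, a splicing factor (102 and 154 FPKM), and Ccdc86 (12.1 and 18.9 FPKM) were the 2 at least 1.5-fold higher, and neither was under the other scalings. The 1 outside row at least 1.5-fold lower was AW112010, a noncoding RNA gene within the wider MS4A cluster, at 450 and 280 FPKM. The direction outside depended on scaling. With each library rescaled to a sum of 1000000, 14 of the 22 outside rows were lower, while the 8 inside were lower under that and the other scalings tried. The rows differ in level, and the difference between inside and outside was not tested.

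**Figure D4:**
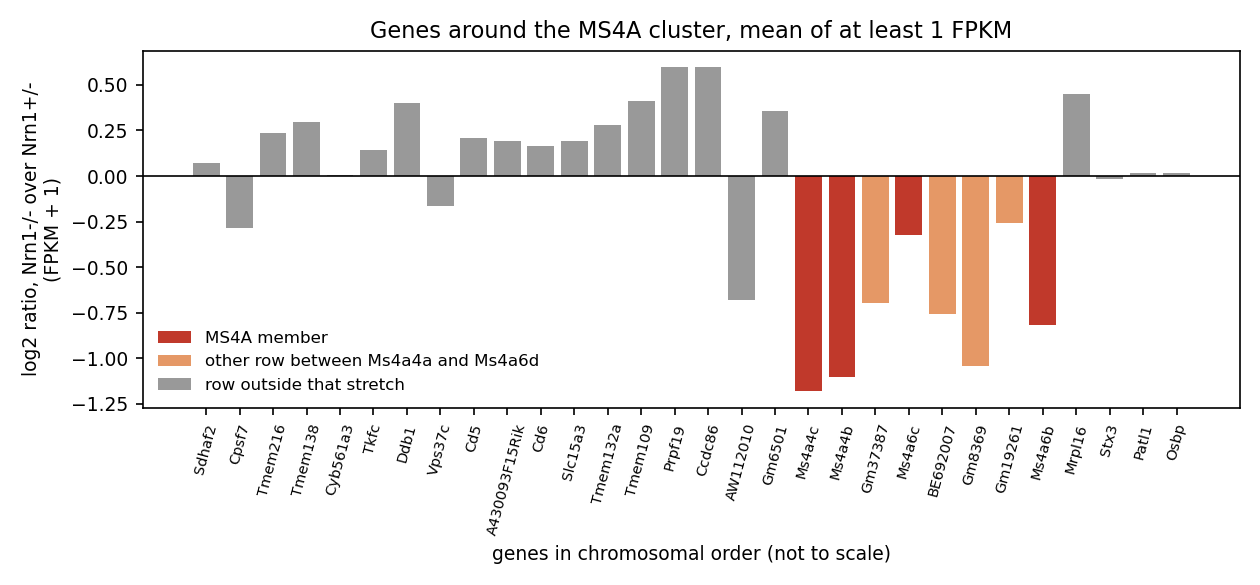
Log2 ratio of Nrn1-/- over Nrn1+/- (FPKM + 1) for each row with a mean of at least 1 FPKM within 500 kb of the MS4A cluster, in chromosomal order and not to scale. All 8 rows between Ms4a4a and Ms4a6d (red for members, orange for others) are below 0, while 18 of the 22 rows outside (grey) are above 0 as deposited, a split that turned to 8 above 0 at a sum of 1000000. Of all genes as deposited, 47.7% were below 0 and 52.3% above.

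Genes with the most similar levels were sought for each member with a mean of at least 5 FPKM, by distance over log2(FPKM + 1) in the 2 libraries among protein-coding genes. With only 2 libraries this likeness is a match of level and ratio and no more. The nearest gene to Ms4a4b was Ms4a6b (distance 0.21), followed by Clk1 (187 and 108 FPKM) and Fyb (187 and 114 FPKM). Nearest to Ms4a6b were Rabac1 (203 and 134 FPKM), Ms4a4b and Hmha1 (192 and 136 FPKM). Nearest to Ms4a4c were Slc15a2 (26.4 and 11.8 FPKM), Trib3 (28.6 and 10.5 FPKM) and Cd1d1 (24.7 and 12.1 FPKM). Nearest to Ms4a6c, with many genes at like values, were Ids (8.66 and 6.82 FPKM), Fnip1 and Cwf19l2.

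Interferon response genes and genes of naive and memory T cells are given for context. Of 23 measured interferon response genes 21 were lower in the null library and 9 at least 1.5-fold lower, beside 47.7% and 5.27% of all genes, with a median log2 ratio of -0.53. At a sum of 1000000 the share of all genes at least 1.5-fold lower was 17.6%. The largest ratios were those of Ifit3 (-0.98), Oasl2 (-0.90) and Ifit1 (-0.89). Of 15 measured genes of naive and memory T cells 12 were lower, 4 at least 1.5-fold lower and 1 at least 1.5-fold higher, beside 47.7%, 5.27% and 7.5% of all genes, with a median of -0.31. The largest ratios among them were those of Dapl1 (1.42) and Bcl2 (-0.76). Ms4a4b (-1.10) and Ms4a4c (-1.18) had log2 ratios below that of every measured gene of both lists, and Ms4a6b (-0.82) lay within their range.

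Letters that interferon regulatory factors are known to favour, GAAANNGAA on either strand, were searched in the RefSeq promoters of 300 bases (250 before and 50 after the start). They stood in 3 of the 7 members matched, Ms4a6b, Ms4a6c and Ms4a7, and in 8.57% of 27025 promoters. Ms4a6b and Ms4a6c held the same 9 letters, GAAAGTGAA, at base -206 and base -133 before their starts, in the printed sequences above. The longer interferon-stimulated response element, which contains these letters, was in none of the 7 and in 3.49% of all promoters. None of the 7 held TTCNNNGAA, the letters of STAT sites (8.47% of all), TGTTTAC, the letters of forkhead factors (3.55%), or TGTGGTT, those of RUNX factors (5.37%). A match is a description of letters and not a measured site, and GAAANNGAA was chosen after the promoters had been read.

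Scaling moved the size of the member differences but not their direction. Over 6 other pseudocounts and scalings plus the use of 1 row per symbol, the log2 ratio of Ms4a4b lay between -1.39 and -1.07, that of Ms4a4c between -1.48 and -0.97, that of Ms4a6b between -1.11 and -0.80 and that of Ms4a6c between -0.60 and -0.22. The lowest values came from rescaling to a sum of 1000000, which took the median of all genes from 0.019 to -0.25. The counts of higher and lower genes in the marker and context lists are for values as deposited and were not repeated under these scalings.

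**Figure D5:**
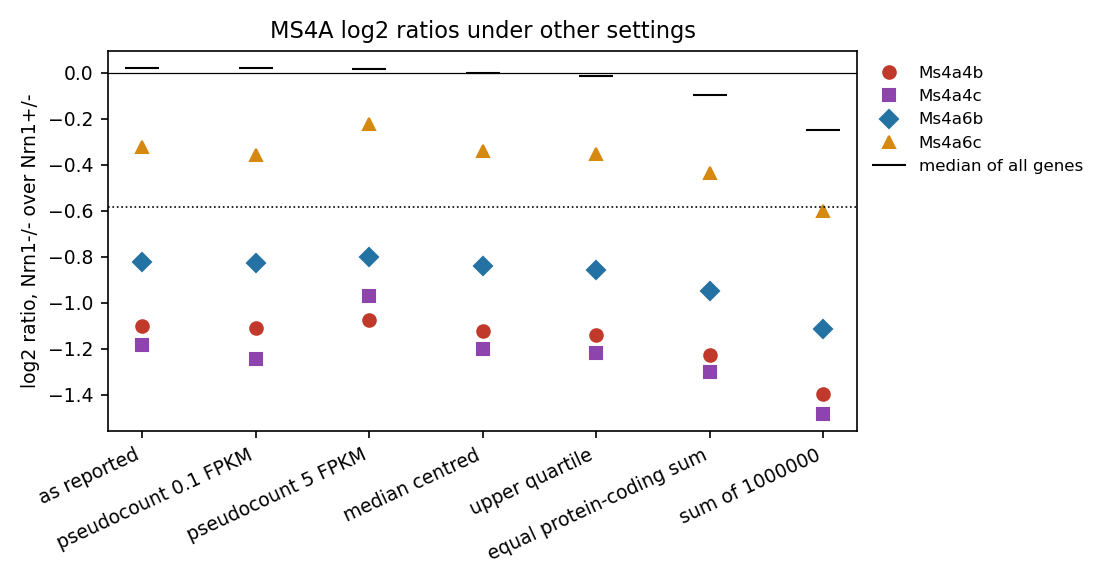
Log2 ratios of Nrn1-/- over Nrn1+/- for the 4 measured members (coloured symbols) and the median of all genes (black bar) as reported and under 6 other pseudocounts or scalings, with a dotted line at 1.5-fold lower. Ms4a4b, Ms4a4c and Ms4a6b stay below the line in each setting, and Ms4a6c reaches it only at a sum of 1000000 (-0.60).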

How the data were processed

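Poly(A) RNA of 1 library per genotype was sequenced from sorted cells, with groups taken from the genotype labels. The deposited values are FPKM per gene, computed by the authors. Per the submitters' processing notes the tools were FastQC, TopHat, Cuffdiff and Cuffnorm and the builds mm10 and GRCm38. The sources used here give no versions, annotation or read length, nor whether the libraries were scaled to each other, which Cuffnorm can do.

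Rows that share a symbol were summed. The ratio was log2((Nrn1-/- + 1)/(Nrn1+/- + 1)), which understates differences of low genes, where the mean reached 1 FPKM (12344 of 46398 symbols). Folds quoted in the text are plain FPKM ratios, while the log2 ratio decides what is past 1.5-fold or 2-fold. What 1 fragment is worth was found from low values of genes with 1 transcript of over 600 bases. After taking 210 and 190 bases off the length, 94.4% of 2161 and 94.4% of 1822 genes lay within 0.1 of whole fragments. The bases taken off and the worth of a fragment were those that made this share highest in the same genes. The share is thus a fit, and the 20% that chance gives holds for values fixed in advance. For genes with several transcripts only a range of fragments can be had. No count test was run, since a library per genotype allows none. Positions and transcripts are from GENCODE M21 (GRCm38; 46000 of 46511 rows matched on the unversioned gene identifier) and promoters from RefSeq on GRCm38.p6. Coding sequences were aligned with Biopython 1.88 in place of proteins, which were not used here. How often genes pass these thresholds between libraries of the same genotype was not tested.

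The named genes follow a rule: all 9 members, the rest of the family, the partner list, the members of the other cell types' marker lists above 1 FPKM, the 3 largest ratios of each list and the 3 genes nearest to each member. Some items that this rule names, or that the labels give, are not reported here. Low markers given by name and the neighbours on the chromosome were chosen after their values were seen. The members and lists were chosen with earlier results of these data known. Alternatives were 2 other pseudocounts, 4 scalings, 2 other filters, 1 row per symbol and another grouping of Ms4a4c. The neighbour counts by scaling were added later.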

Additional observations from a re-analysis of the deposited data

How the results depend on the processing

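The direction of the 4 measured members held under every pseudocount, scaling and choice of rows tried. The median log2 ratio of the 3 T cell members, -1.10, was -1.23 with equal protein-coding sums and -1.39 at a sum of 1000000. With a pseudocount of 5 FPKM it was -0.97, where the middle gene changed from Ms4a4b to Ms4a4c. The members at least 1.5-fold lower went from 3 to 5 at a sum of 1000000, where Ms4a6c and Ms4a6d joined them. The share of all genes went from 5.27% to 17.6%. That scaling also took the genes past the filter from 12344 to 13012 and the members from 4 to 5. Ms4a6d passed the filter at no other scaling. It did so through its heterozygous value (1.19 and 0.475 FPKM as deposited), so nothing is read from its call. The members at least 2-fold lower went from 2 to 1 with a pseudocount of 5 FPKM, where the share of all genes went from 1.11% to 0.63%. At a sum of 1000000 they went to 3 and that share to 2.95%. Without a pseudocount, the log2 ratio of Nrn1-/- over Nrn1+/- was -0.98 for the summed T cell members. For the summed B cell and myeloid members this ratio was -0.48. The difference between the 2 ratios was -0.50, which no scaling can move. Counting Ms4a4c with the myeloid members turned it to 0.019, since Ms4a4c then outweighs the others in that sum, so no difference between the groups is claimed. Outside the stretch from Ms4a4a to Ms4a6d the number of lower rows went from 4 to 7, 8 and 14 with upper-quartile, protein-coding and total scaling, a check added after seeing the data. No paired analysis was possible because each genotype has 1 library, and for the same reason no library could be left out. Depth limits Ms4a1, Ms4a4a, Ms4a4d and Ms4a7, which rest on at most 29 fragments in either library. It also limits Ms4a6d, at 16 to 75 fragments in the heterozygous library and 5 to 23 in the null library.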
